A study of Homo sapiens with 11 samples.

Results

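Heat shock proteins and chaperones fold new proteins, refold damaged ones and hold unfolded ones in solution. The genes described here are set by a rule on gene symbols. They are the HSP70, HSP110, HSP90, HSP60, HSP10 and small heat shock protein genes, the J-domain genes DNAJA, DNAJB and DNAJC, the CCT chaperonin genes with TCP1, the BAG genes and TRAP1, without symbols in pseudogene form. The rule took 88 of the 60605 features in the deposited table. By family these were 16 HSP70 and HSP110 genes, 4 HSP90 genes with TRAP1, 2 HSP60 and HSP10 genes, 8 small heat shock protein genes, 9 CCT genes with TCP1, 4 DNAJA, 13 DNAJB, 26 DNAJC and 6 BAG genes. HSPA7 and DNAJB3 have a functional-gene symbol but are annotated as pseudogenes in GENCODE release 29.

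Polyadenylated RNA was sequenced from ARPE-19, an established line of human retinal pigment epithelium cells, the pigmented layer behind the retina. Each group was a stable ARPE-19 line made to express an introduced open reading frame (ORF) for 4 days. The ORF was GFP, a fluorescent protein that served as the control (n = 3 libraries), or the transcription factor Oct4, Sox2 or Klf4 (n = 2 each), or all of Oct4, Sox2 and Klf4, called OSK (n = 2). All groups therefore carried an ORF, no untransduced cells were analysed here, and the labels do not give the species of the ORFs or a batch. The names of the factor libraries carry the letters mC, which those of the GFP libraries do not, and the labels do not explain them. The labels do not say that replicates came from separate cultures, so p-values measure the spread between these libraries, which may be technical.

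HSP70 chaperones bind and release unfolded stretches of protein in a cycle driven by ATP. J-domain (DNAJ) proteins deliver substrates to HSP70 and start that cycle, and HSP110 and BAG proteins end it by exchanging the nucleotide. HSP90 completes the folding of kinases and steroid receptors, the CCT ring folds actin and tubulin, HSP60 with its HSP10 lid folds proteins in mitochondria, and small heat shock proteins hold unfolded proteins without ATP. Heat shock factor 1 raises many of these genes under stress through heat shock elements, and the unfolded protein response raises those of the endoplasmic reticulum (ER). In pigment epithelium, which digests shed photoreceptor tips and meets strong oxidative load, chaperones are studied as part of cellular protection.

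Recovered depth was 15053300 to 19791775 reads per library. GFP replicate 1 and OSK replicate 1 stood apart, with 42956 and 32493 features having a read against 25853 to 26971 in the other libraries, and results that rest on them are also given without them. The introduced genes were high in the lines labelled for them: POU5F1 (the gene of Oct4) by a log2 change of 7.99 in Oct4 and 6.19 in OSK, SOX2 by 8.90 in Sox2 and 8.18 in OSK, and KLF4 by 8.47 in Klf4 and 8.54 in OSK. Of 16 markers of pigment epithelium, RPE65, the visual cycle isomerase, had at most 3 reads in every GFP, Oct4, Sox2 and OSK library. DCT was as low in the Oct4, Sox2, Klf4 and OSK libraries, TTR in Oct4, Sox2 and Klf4, and RLBP1 in OSK. The summed level of the 16 markers was 33589 to 37277 normalised counts in GFP, 18536 to 19109 in Oct4, 21545 to 22230 in Sox2, 26162 to 29330 in Klf4 and 16045 to 16328 in OSK. A sum can hide members that moved against it. Of the 13 tested against GFP by limma, as described further on, 1 was called higher and 9 lower in Oct4. The counts were 1 and 6 in Sox2, 2 and 4 in Klf4, and 1 and 10 in OSK. The summed level of 10 proliferation markers was 2431 to 2698 in GFP, 2472 to 2547 in Oct4, 4373 to 4512 in Sox2, 8490 to 9817 in Klf4 and 8127 to 8458 in OSK. All 10 were tested, and 3 were called higher and 2 lower in Oct4. The counts were 7 and 0 in Sox2, 10 and 0 in Klf4, and 9 and 0 in OSK. The summed level of 8 fibroblast markers was 14079 to 16730 in GFP, 10952 to 14089 in Oct4, 13262 to 16165 in Sox2, 7321.5 to 8616.5 in Klf4 and 5158.9 to 5986.7 in OSK. Of the 5 tested, 1 was called higher and 1 lower in Oct4. The counts were 2 and 1 in Sox2, 0 and 4 in Klf4, and 0 and 3 in OSK. A set of 8 blood markers summed to at most 98.3 in any library. These marker levels moved with the groups, and their part in the chaperone results was not tested. In bulk RNA, fewer cells of a kind and less RNA per cell cannot be told apart.

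Sequence motifs are described first, since they are the textbook link between these genes and stress. RefSeq promoter windows (GRCh38.p14, from 250 bases before to 50 bases after a gene's start) were matched by symbol for 77 of the 88 genes, with 100 windows in all. A heat shock element, written as GAA, TTC and GAA with any 2 bases between neighbours and searched, as all motifs were, on both strands, was in 172 of 35116 windows of all genes (0.490%). It was in windows of 7 chaperone genes: DNAJA1, DNAJB6, HSP90AA1, HSP90AB1, HSPA6, HSPA8 and HSPD1. An ER stress element, CCAAT and CCACG with any 9 bases between them, was in 27 windows of all genes (0.0769%), of which 2 belonged to HSPA5 and HSP90B1. GGGTGTGG, a motif of KLF factors, was in 3.28% of all windows and in those of DNAJA4 and HSPB7. ATGCAAAT, the octamer bound by Oct factors, was in 1.77% of all windows and in 0 of the 100 chaperone windows. A match is a description of the letters in the window, and the assay did not measure binding. Only exact matches were counted, so a window without a match may still hold a variant form of a motif. The matched sites are shown here, with 3 flanking bases in lower case and the motif in capitals, read on the strand of the gene; the HSPD1 sites are shown with its promoter further on.
DNAJA1, 3 bases after the start: gcgGAACTTTCCAGAAcgc
DNAJB6, 131 bases before the start: cgaGAACCTTCGCGAAggt
HSP90AA1, 88 bases before the start: ttcTTCCGGAAGGTTCggg
HSP90AB1, 165 bases before the start: aggTTCTGGAAGATTCatg
HSP90AB1, 112 bases before the start: ttgTTCTGGAAGCTTCtgg
HSPA6, 74 bases before the start: aggTTCGCGAAAGTTCgcg
HSPA8, 230 bases before the start: cttGAAAGTTCCAGAAcgc
HSPA8, 55 bases before the start: cccTTCTGGAAGGTTCtaa
HSPA5, ER stress element 66 bases before the start: tcaCCAATCGGCGGCCTCCACGacg
HSP90B1, ER stress element 194 bases before the start: tgaCCAATCGGAAGGAGCCACGctt
HSP90B1, ER stress element 89 bases before the start: gtgCGTGGTGCGGCGCGATTGGtgg

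Each line was compared with GFP to ask which chaperone genes each factor's expression went with. Levels are given as normalised counts, which the authors made by dividing the reads of each gene by a number set for each library. Changes are limma estimates on log2(value + 1) with their standard error (SE), and a gene is called changed at a Benjamini-Hochberg adjusted p-value under 0.05 over the 18828 genes tested, those that reached 10 normalised counts in 2 or more libraries. Of the 88 chaperone genes 80 passed that filter. The 4 comparisons share the GFP libraries.

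In the Oct4 line 16 chaperone genes rose and 24 fell, against 20.1% higher and 17.2% lower among all genes tested. In the Sox2 line 18 rose and 17 fell, with 21.7% and 19.9% as the background. In the Klf4 line 11 rose and 21 fell, with 17.6% and 16.0% as the background. In OSK 13 rose and 17 fell, with 19.7% and 20.0% as the background. The shares that fell in the Oct4 and Klf4 lines were above the background, and the other shares lay near or below it. Without Klf4 replicate 1 the Klf4 counts were 6 higher and 12 lower, with 12.4% and 11.2% of all genes. Without Oct4 replicate 1 fewer chaperone genes were called higher in Oct4, and without Sox2 replicate 1 fewer were called lower in Sox2. Without OSK replicate 1 fewer were called in either direction in OSK. Each of these fits leaves 1 library in the line. In the Oct4 and Sox2 fits fewer of all genes were called in that direction too. The 16 genes higher in Oct4 include HSPB3, which passed the filter only through the Oct4 libraries. The median change of the 80 genes was -0.11 in Oct4, 0.02 in Sox2, -0.08 in Klf4 and -0.01 in OSK, where the median of all genes tested was -0.02, -0.02, -0.02 and -0.01. A limma F test found a difference among the 5 groups for 62 of the 80, with 65.7% of all genes tested as the background. These backgrounds, like those given further on, include many low genes. Of the 14983 genes with a mean of at least 1 CPM (reads scaled to library size), 11624 differed by the F test. That share is near the 77.5% of the 80 chaperone genes. Among them 3179 were lower in Oct4 and 2952 in Klf4, which are larger shares than those of all genes tested.

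**Figure D1:**
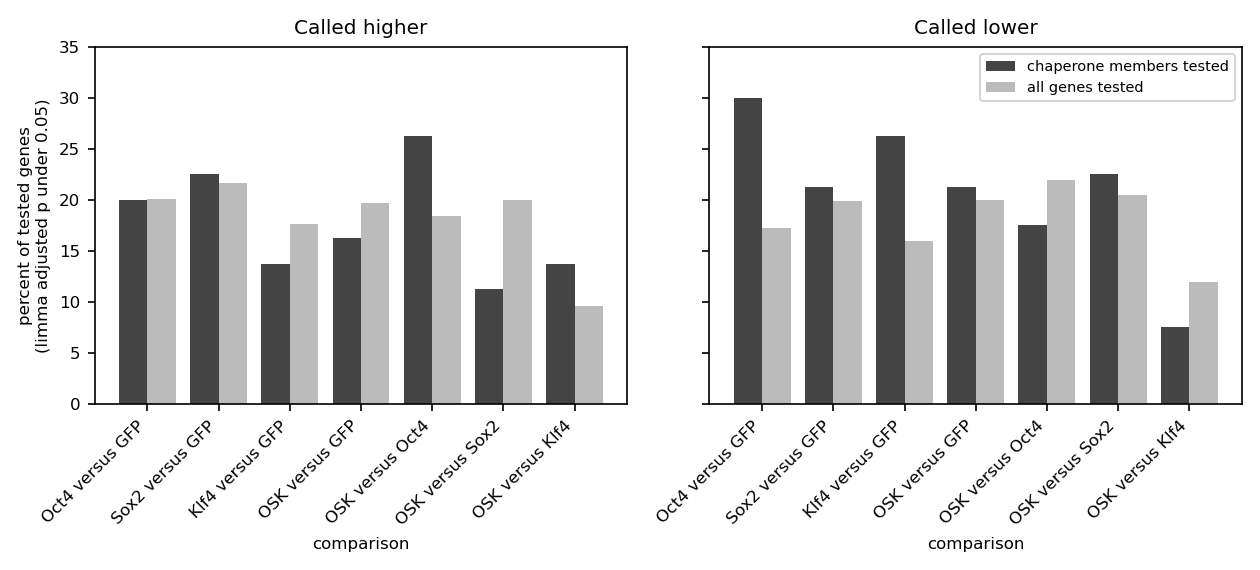
Bars give the percent of tested genes called higher (left) or lower (right) at a limma adjusted p-value under 0.05 in 7 comparisons, dark for the 80 chaperone genes and light for all 18828 genes. In Oct4 and Klf4 against GFP the bar for chaperone genes called lower is above the bar for all genes, at 17.2% and 16.0%.

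Only DNAJC3 and DNAJC10 were called higher in all 4 lines, and only DNAJC22 was called lower in all 4. Another 13 genes were called higher in at least 1 line and lower in at least 1 other: BAG1, BAG3, DNAJA3, DNAJA4, DNAJB2, DNAJB5, DNAJB6, DNAJC14, HSPA13, HSPA4L, HSPB1, HSPB8 and HSPH1. For 19 genes no line was called, among them HSPA5, BAG6, CCT8 and DNAJA2. The shares of all genes with these patterns are not given here, and the 4 comparisons share the GFP libraries. These counts are therefore a description only. Together, reads on the 88 genes were 1.03% to 1.05% of all reads in the GFP libraries. They were 0.912% and 0.927% in Oct4, 1.05% and 1.07% in Sox2, 0.950% and 0.942% in Klf4, and 1.03% and 1.04% in OSK. Both Oct4 libraries were thus the lowest of the 11 and both Klf4 libraries the next lowest.

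**Figure D2:**
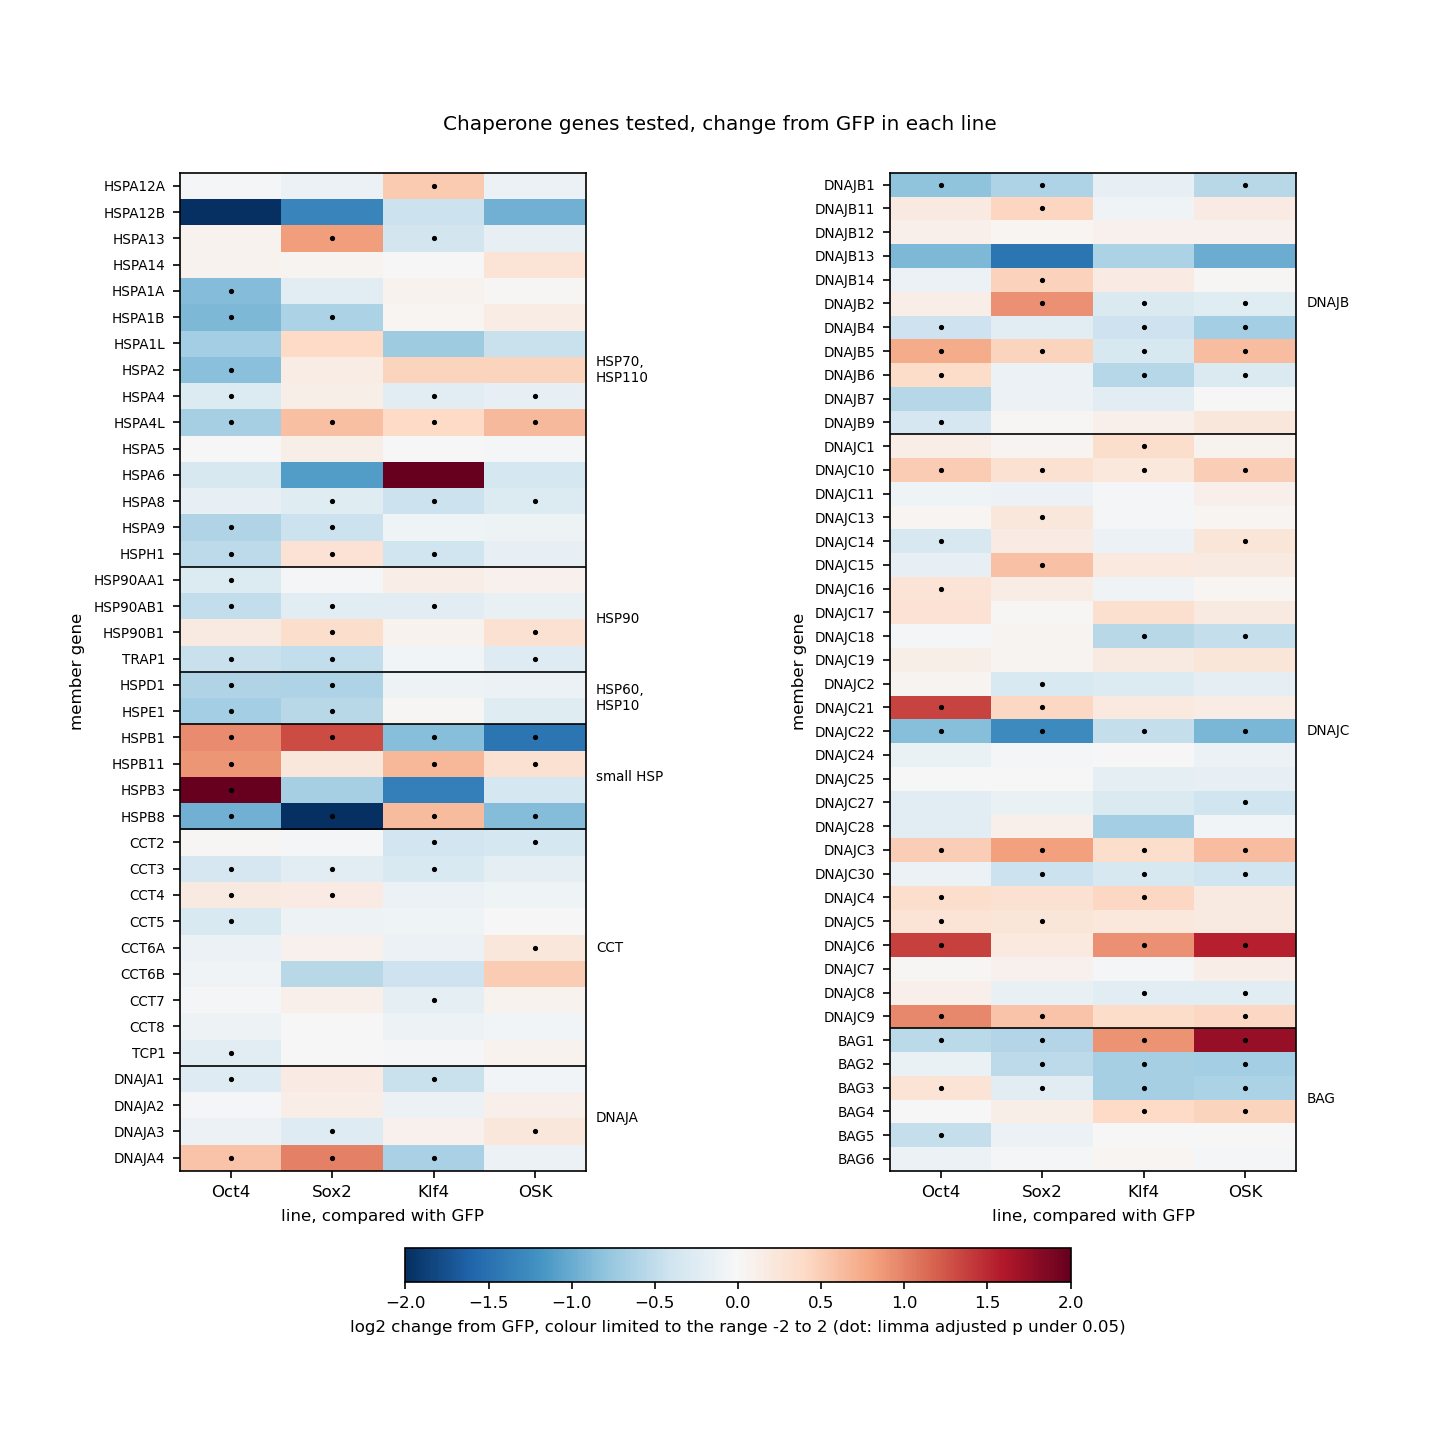
Colour gives the log2 change from GFP of each of the 80 tested chaperone genes (rows, by family) in each line (columns), limited to the range -2 to 2, and a dot marks a limma adjusted p-value under 0.05. HSPB1, HSPB8 and BAG1 hold strong opposite colours between lines, as do HSPA6 and HSPB3, which have few reads. The HSP70 and HSP110 block is mostly blue in Oct4.

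Among the HSP70 and HSP110 genes, 15 were tested and the Oct4 line had 0 calls higher and 7 lower, with a median change of -0.53. The 7 are 46.7% of the 15, where 20.1% of all genes were higher and 17.2% lower in Oct4. The other lines had 3 higher and 3 lower in Sox2 (all genes 21.7% and 19.9%), 2 and 4 in Klf4 (17.6% and 16.0%) and 1 and 2 in OSK (19.7% and 20.0%). The Sox2 shares were near the background, and counts this small move by 6.67% of the family with each gene. HSPA1A and HSPA1B, the stress-inducible cytosolic HSP70s, lie as neighbours on chromosome 6 (chr6:31815464-31817946 and chr6:31827735-31830255, both on the + strand, GENCODE 29). The 300-base windows around their starts match at 277 of 299 bases with an offset of 1 base (92.6%), and the 250 bases before each start are shown because these genes fell together in the Oct4 line.
HSPA1A, chr6:31815293-31815542, + strand: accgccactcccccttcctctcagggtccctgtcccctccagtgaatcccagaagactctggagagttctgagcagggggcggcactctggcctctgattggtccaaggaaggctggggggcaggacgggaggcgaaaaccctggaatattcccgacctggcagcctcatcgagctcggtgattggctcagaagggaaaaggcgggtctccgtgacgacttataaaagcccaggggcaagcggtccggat
HSPA1B, chr6:31827488-31827737, + strand: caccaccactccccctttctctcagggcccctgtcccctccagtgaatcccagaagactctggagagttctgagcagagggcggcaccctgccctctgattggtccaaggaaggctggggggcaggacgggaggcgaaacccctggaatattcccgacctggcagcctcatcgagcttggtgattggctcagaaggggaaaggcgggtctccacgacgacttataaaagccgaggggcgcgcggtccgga

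HSPA1A had 802, 823 and 736 normalised counts in GFP, 432 and 434 in Oct4, 702 and 660.2 in Sox2, 743 and 913 in Klf4, and 780.5 and 813 in OSK. Both Oct4 libraries lay below all 9 others, the Sox2 libraries lay below the GFP range, and the Klf4 and OSK libraries overlapped it. The change was -0.86 (SE 0.09; limma adjusted p = 1.76e-06) in Oct4, 1.82-fold lower than GFP, and it was not called in Sox2 (-0.21), Klf4 (0.07) or OSK (0.02). HSPA1B had 1021, 997 and 1007 normalised counts in GFP, 569 and 508 in Oct4, 627 and 667 in Sox2, 1024 and 1047 in Klf4, and 1093 and 1142 in OSK. Here both the Oct4 and the Sox2 libraries lay below every GFP library, by -0.91 (SE 0.07; limma adjusted p = 9.34e-08) and -0.64 (SE 0.07; limma adjusted p = 3.46e-06), and Klf4 and OSK were just above the GFP range. Of the 50-base transcript sequences of HSPA1A 71.3% also occur in HSPA1B, and of those of HSPA1B 71.4% also occur in HSPA1A. How their counts were divided is not given in the sources used here, so the split between the 2 genes is uncertain while each fell in the Oct4 line.

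HSPA8, the constitutive HSP70 of the cytosol, was among the highest of these genes per length of transcript. It had 14236, 14259 and 14764 normalised counts in GFP, 12806 and 12940.1 in Oct4, 12259.7 and 12223 in Sox2, 10752 and 10576 in Klf4, and 11608 and 12167 in OSK. All 8 libraries of the factor lines lay below the GFP range, with the Klf4 libraries lowest. HSPA8 fell by 0.24 in Sox2 (limma adjusted p = 0.00621), by 0.44 in Klf4 (limma adjusted p = 5.17e-05) and by 0.28 in OSK (limma adjusted p = 0.00198) on the log2 scale. In Oct4 the change of -0.16 was not called (limma adjusted p = 0.0514), and it was without GFP replicate 1 (-0.17; limma adjusted p = 0.0159).

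HSPH1 (HSP110, a nucleotide exchange factor for HSP70) and HSPA4L, a relative of it, went in opposite directions between Oct4 and Sox2. HSPA4L had 790.5, 818 and 862 normalised counts in GFP, 488 and 557 in Oct4, 1304 and 1186 in Sox2, 1162 and 1016 in Klf4, and 1375 and 1202 in OSK. Both Oct4 libraries were below the GFP range and all 6 libraries of the other factor lines above it. The changes of HSPA4L were -0.66 (SE 0.09; limma adjusted p = 2.85e-05) in Oct4, 0.59 (limma adjusted p = 6.14e-05) in Sox2, 0.40 (limma adjusted p = 0.00279) in Klf4 and 0.64 (limma adjusted p = 3.15e-05) in OSK. HSPH1 had 1778, 1549.8 and 1657 normalised counts in GFP, 1216 and 1092 in Oct4, 2252 and 1838 in Sox2, 1206 and 1322 in Klf4, and 1376 and 1588 in OSK. Its Oct4 and Klf4 libraries lay below the GFP range, its Sox2 libraries above it, and OSK replicate 2 fell within it. HSPH1 changed by -0.53 (SE 0.10; limma adjusted p = 0.000438) in Oct4, by 0.29 (SE 0.10; limma adjusted p = 0.0224) in Sox2 and by -0.39 (SE 0.10; limma adjusted p = 0.0049) in Klf4. The Sox2 call of HSPH1 was lost without Sox2 replicate 1 (0.15) or GFP replicate 2, and the Klf4 calls of HSPH1 and HSPA4L without Klf4 replicate 1 (-0.33 and 0.30).

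HSPA2, a HSP70 best known from the testis, gave results that rested on GFP replicate 1. It had 856, 475 and 499.6 normalised counts in GFP, 356 and 307 in Oct4, 672 and 634 in Sox2, 734 and 881 in Klf4, and 699 and 926 in OSK. GFP replicate 1 was far above the other GFP libraries, and both Oct4 libraries lay below all others. HSPA2 was called lower in Oct4, by -0.83 (SE 0.19; limma adjusted p = 0.00297), and in no other line. Without GFP replicate 1 it was called higher in Sox2 (0.42; limma adjusted p = 0.00996), Klf4 (0.72; limma adjusted p = 0.000158) and OSK (0.72; limma adjusted p = 0.000116). HSPA12A, a distant HSP70 relative, rose in Klf4 alone among the lines, by 0.52 (SE 0.09; limma adjusted p = 0.000359), from 558 to 623 in GFP to 893 and 783 in Klf4, and OSK was lower than Klf4 by 0.64 on the log2 scale (limma adjusted p = 0.000221). HSPA6, a strictly stress-inducible HSP70, stayed low at 0 to 19.7 normalised counts in all 11 libraries.

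**Figure D3:**
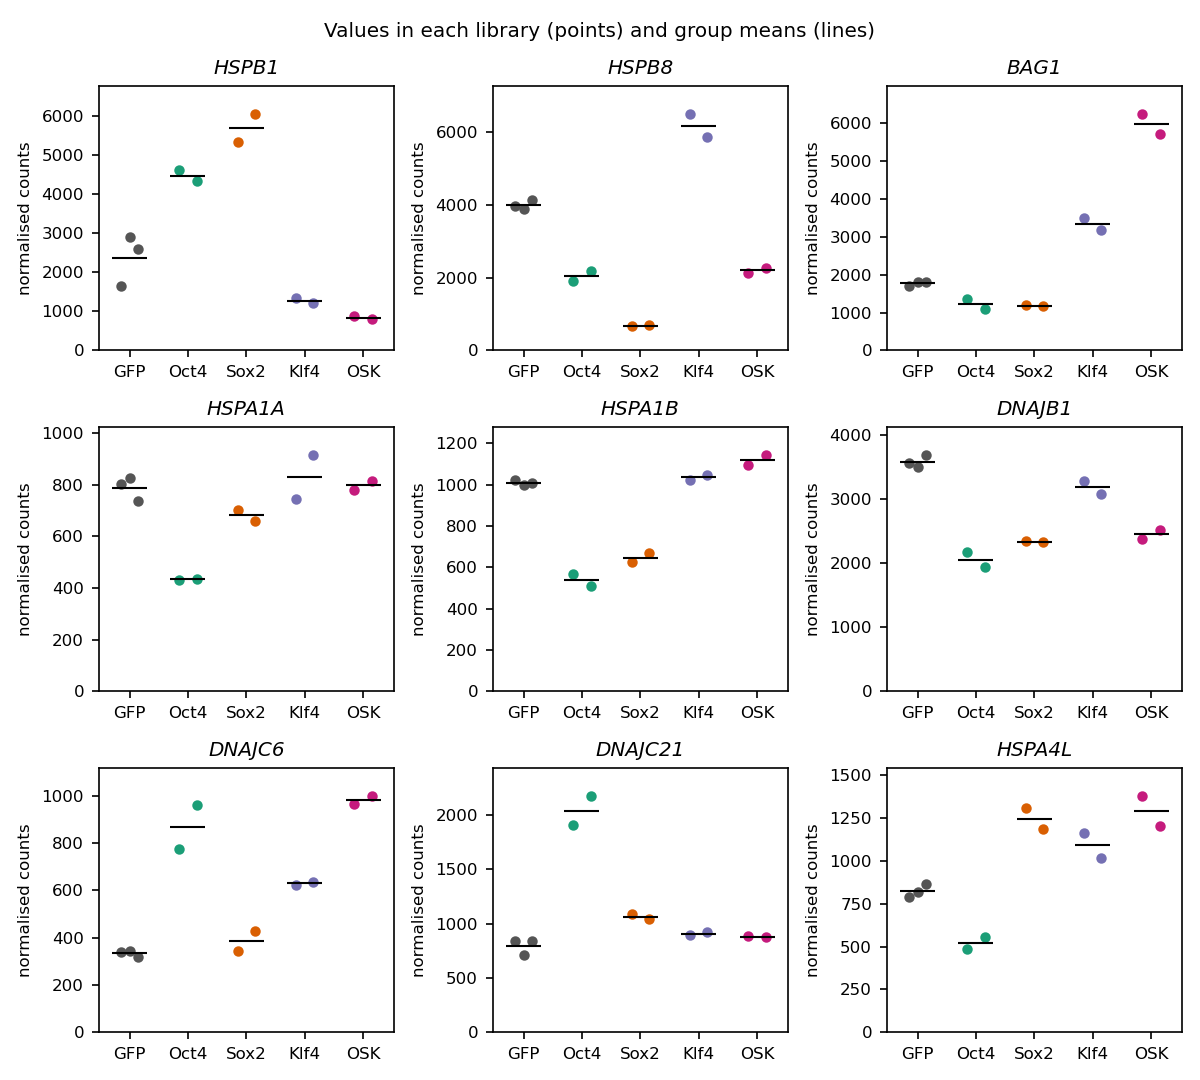
Normalised counts (vertical axes, from 0) of 9 chaperone genes in each of the 11 libraries, with points for libraries and lines for group means. HSPB1 is above GFP in Oct4 and Sox2 and below it in Klf4 and OSK, while BAG1 shows the opposite order.

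The J-domain genes are the most numerous co-chaperones. Among 25 DNAJC genes tested, 8 rose and 2 fell in Oct4 (all genes 20.1% and 17.2%), 7 and 3 in Sox2 (21.7% and 19.9%), 5 and 4 in Klf4 (17.6% and 16.0%), and 5 and 5 in OSK (19.7% and 20.0%). The Klf4 and OSK shares of the DNAJC genes were near the background. Among 11 DNAJB genes the counts higher and lower were 2 and 3 in Oct4, 4 and 1 in Sox2, 0 and 4 in Klf4, and 1 and 4 in OSK. The 4 lower in Klf4 or OSK are 36.4% of the family, and the Oct4 share higher was near the background. DNAJC6, auxilin, which strips clathrin from vesicles with HSC70, rose in 3 lines. DNAJC6 had 341, 345 and 318 normalised counts in GFP, 776 and 959 in Oct4, 346 and 428 in Sox2, 621 and 636 in Klf4, and 964 and 997 in OSK. All Oct4, Klf4 and OSK libraries lay above the GFP range, and so did the Sox2 libraries by little. The change was 1.36 (SE 0.11; limma adjusted p = 4.86e-08) in Oct4, 0.91 (SE 0.11; limma adjusted p = 6.04e-06) in Klf4 and 1.55 (SE 0.11; limma adjusted p = 1.09e-08) in OSK, which was 2.93-fold higher than GFP. In Sox2 it was 0.20 and not called (limma adjusted p = 0.145), except without Sox2 replicate 1 (0.36).

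DNAJC21, a J-domain protein of ribosome maturation, was highest in the Oct4 line. It had 837, 715 and 838 normalised counts in GFP, 1907 and 2168 in Oct4, 1085 and 1041 in Sox2, 894 and 918 in Klf4, and 886 and 873 in OSK. The Oct4 libraries were above all 9 others, and no factor library overlapped the GFP range. DNAJC21 rose by 1.35 (SE 0.08; limma adjusted p = 3.98e-09) in Oct4 and by 0.42 (SE 0.08; limma adjusted p = 0.000732) in Sox2, and OSK was below Oct4 by 1.21 on the log2 scale (limma adjusted p = 3.63e-08). DNAJC9, a histone co-chaperone, was 191 to 226 in GFP and 446 and 364 in Oct4, with no overlap, a rise of 0.95 (SE 0.14; limma adjusted p = 5.34e-05). DNAJC9 also passed in Sox2 (0.57; limma adjusted p = 0.00375) and OSK (0.41; limma adjusted p = 0.0286). The Sox2 call was lost without Sox2 replicate 2, and the OSK call without either OSK replicate or GFP replicate 2.

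DNAJC22, a membrane J-domain protein, was lower in every factor line. It had 431, 589.8 and 631 normalised counts in GFP, 288 and 316 in Oct4, 218 and 230.3 in Sox2, 436 and 349.6 in Klf4, and 304 and 273 in OSK. The libraries of Oct4, Sox2 and OSK lay below the GFP range, whereas Klf4 replicate 1 lay within it. The changes were -0.85 (SE 0.14; limma adjusted p = 0.000228) in Oct4, -1.28 (limma adjusted p = 2.77e-06) in Sox2, -0.48 (limma adjusted p = 0.0188) in Klf4 and -0.91 (limma adjusted p = 9.57e-05) in OSK. The Klf4 call was lost without Klf4 replicate 2 (-0.32) and without GFP replicate 2 or 3.

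DNAJB1, the main J-domain partner of HSP70 in the heat shock response, had 3570.0, 3510.4 and 3686 normalised counts in GFP, 2174 and 1945 in Oct4, 2343 and 2336 in Sox2, 3287 and 3086 in Klf4, and 2385 and 2518 in OSK. Every factor library lay below the GFP range, with Oct4 lowest and Klf4 nearest to GFP. DNAJB1 changed by -0.80 (SE 0.07; limma adjusted p = 1.12e-07) in Oct4, by -0.62 (SE 0.07; limma adjusted p = 1.66e-06) in Sox2 and by -0.55 (SE 0.07; limma adjusted p = 6.67e-06) in OSK, and by -0.17 in Klf4, where it was not called (limma adjusted p = 0.0605). DNAJB2, a neuronal J-domain protein that sends clients to the proteasome, stood out in Sox2 with 1965, 2353 and 2268 normalised counts in GFP, 2452 and 2339 in Oct4, 4123 and 4143 in Sox2, 1821 and 1762 in Klf4, and 1833 and 1865 in OSK. The Sox2 libraries were above all others, a rise of 0.92 (SE 0.07; limma adjusted p = 6.49e-08). DNAJB2 was lower than GFP in Klf4 (-0.29; limma adjusted p = 0.00681) and OSK (-0.24; limma adjusted p = 0.0163), calls that were lost without Klf4 replicate 2 and without either OSK replicate or GFP replicate 2 or 3.

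DNAJB5 and DNAJB6 separated the Klf4 line from the Oct4 line. DNAJB5 was 583 to 610 in GFP, 1026 and 961 in Oct4, 829 and 778 in Sox2, 450 and 503 in Klf4, and 959 and 865 in OSK. It rose by 0.74 (SE 0.08; limma adjusted p = 2.53e-06) in Oct4, and also rose in Sox2 (0.44; limma adjusted p = 0.000411) and OSK (0.62; limma adjusted p = 1.61e-05) and was lower in Klf4 (-0.32; limma adjusted p = 0.00691), though not without Klf4 replicate 1 (-0.24; limma adjusted p = 0.107). DNAJB6, which keeps polyglutamine proteins from aggregating, was 4457 to 4551 in GFP, 6059 and 5637 in Oct4 and 2783 and 3316 in Klf4. It rose by 0.37 (SE 0.08; limma adjusted p = 0.00112) in Oct4 and changed by -0.57 (SE 0.08; limma adjusted p = 2.54e-05) in Klf4. DNAJA4, a farnesylated DNAJA protein, was 68.8 to 112 in GFP and 185 and 186 in Sox2, a rise of 1.00 (SE 0.20; limma adjusted p = 0.000696). Its call in Oct4 (0.56) was lost without either Oct4 replicate or GFP replicate 2. Its call in Klf4 (-0.65) was lost without GFP replicate 3, Klf4 replicate 1 or GFP replicate 1 (the last -0.51; limma adjusted p = 0.0656).

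BAG1, an exchange factor that links HSP70 to the proteasome and also binds BCL2, had the largest rise of any chaperone gene in OSK. It lies at chr9:33247820-33264720 on the - strand (GENCODE 29). The 250 bases before its RefSeq start are shown because no other tested member rose as much in that line. They hold no exact match to the 4 motifs, and other forms of these motifs, those of KLF factors included, were not searched for.
BAG1, chr9:33264709-33264958, - strand: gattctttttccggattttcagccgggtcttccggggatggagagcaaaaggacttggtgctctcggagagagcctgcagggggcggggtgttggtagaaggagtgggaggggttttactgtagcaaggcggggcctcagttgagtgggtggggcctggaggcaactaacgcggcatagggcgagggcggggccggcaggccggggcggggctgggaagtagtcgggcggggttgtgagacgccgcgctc

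BAG1 had 1711, 1815 and 1811 normalised counts in GFP, 1361 and 1095 in Oct4, 1194 and 1171 in Sox2, 3491 and 3169.6 in Klf4, and 6235 and 5721 in OSK. The 5 groups did not overlap except for Oct4 and Sox2, and the order from low to high was these 2, GFP, Klf4 and OSK. BAG1 rose by 1.75 (SE 0.09; limma adjusted p = 2.95e-10) in OSK, 3.36-fold over GFP, and by 0.90 (SE 0.09; limma adjusted p = 6.1e-07) in Klf4. It changed by -0.54 (SE 0.09; limma adjusted p = 0.000103) in Oct4 and by -0.59 (SE 0.09; limma adjusted p = 3.58e-05) in Sox2. OSK exceeded Klf4 by 0.84 (limma adjusted p = 6.06e-06), Oct4 by 2.29 (limma adjusted p = 3.26e-11) and Sox2 by 2.34 (limma adjusted p = 2.9e-11). These calls held in all 21 alternatives for the 4 comparisons with GFP.

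BAG3, which works with HSPB8 in selective autophagy, had 2145, 2441 and 2332 normalised counts in GFP, 2859 and 2739 in Oct4, 1981 and 1986 in Sox2, 1406 and 1489 in Klf4, and 1537 and 1428 in OSK. The Oct4 libraries lay above the GFP range and the libraries of Sox2, Klf4 and OSK below it. BAG3 changed by -0.67 (SE 0.07; limma adjusted p = 2.05e-06) in Klf4 and by -0.64 (SE 0.07; limma adjusted p = 2.47e-06) in OSK. The smaller changes in Oct4 (0.28; limma adjusted p = 0.00501) and Sox2 (-0.21; limma adjusted p = 0.0223) were lost without Oct4 replicate 1 and without either Sox2 replicate or GFP replicate 2 or 3. BAG2, which inhibits the ubiquitin ligase CHIP, was 436 to 577 in GFP and 308 to 326 in Klf4 and OSK, with no overlap. It changed by -0.66 (SE 0.11; limma adjusted p = 0.000235) in Klf4, -0.67 (limma adjusted p = 0.000139) in OSK and -0.53 (limma adjusted p = 0.00106) in Sox2.

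Among the genes called in Sox2, a small heat shock protein had the largest change in each direction. HSPB1 (HSP27), which binds unfolded proteins and actin filaments, and HSPB8 (HSP22), the partner of BAG3, each changed in all 4 lines but in different directions. HSPB1 lies at chr7:76302544-76304295 and HSPB8 at chr12:119178642-119221131, both on the + strand (GENCODE 29). Neither RefSeq window held an exact match to the 4 motifs, and near matches were not searched for. The 250 bases before each start are shown because these genes moved in opposite directions between lines.
HSPB1, chr7:76302423-76302672, + strand: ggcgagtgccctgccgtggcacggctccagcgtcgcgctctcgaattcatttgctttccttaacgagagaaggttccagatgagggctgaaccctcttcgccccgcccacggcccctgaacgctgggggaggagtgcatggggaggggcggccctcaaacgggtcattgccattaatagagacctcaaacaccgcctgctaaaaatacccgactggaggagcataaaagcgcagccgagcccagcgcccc
HSPB8, chr12:119178681-119178930, + strand: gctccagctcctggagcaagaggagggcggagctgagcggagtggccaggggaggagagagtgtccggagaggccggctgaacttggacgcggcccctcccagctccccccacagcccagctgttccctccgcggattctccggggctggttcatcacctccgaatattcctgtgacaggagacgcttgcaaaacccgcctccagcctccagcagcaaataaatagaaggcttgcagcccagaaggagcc

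HSPB1 had 1644, 2895 and 2588 normalised counts in GFP, 4617 and 4324 in Oct4, 5334 and 6041 in Sox2, 1344 and 1208 in Klf4, and 878 and 799.6 in OSK. All 4 libraries of Oct4 and Sox2 lay above the GFP range and all 4 of Klf4 and OSK below it. The changes were 0.95 (SE 0.16; limma adjusted p = 0.000209) in Oct4, 1.30 (SE 0.16; limma adjusted p = 7.27e-06) in Sox2, -0.86 (SE 0.16; limma adjusted p = 0.000626) in Klf4 and -1.46 (SE 0.16; limma adjusted p = 2.37e-06) in OSK. From Sox2 to OSK the mean went from 5687 ± 500 to 839 ± 55.5 (SD, n = 2 each), a log2 difference of -2.76 (SE 0.18; limma adjusted p = 4.65e-09). GFP replicate 1, with the lowest GFP value, moved the sizes: without it the changes were 0.71, 1.05, -1.10 and -1.71.

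HSPB8 had 3967, 3892 and 4148 normalised counts in GFP, 1915 and 2192 in Oct4, 662 and 694 in Sox2, 6499 and 5873 in Klf4, and 2137 and 2264 in OSK. The Klf4 libraries lay above the GFP range, Oct4 and OSK well below it and Sox2 lowest. The change in Sox2 was -2.56 (SE 0.07; limma adjusted p = 6.73e-13), 5.90-fold lower than GFP. It was -0.97 (SE 0.07; limma adjusted p = 4.19e-08) in Oct4, -0.86 (SE 0.07; limma adjusted p = 1.33e-07) in OSK and 0.63 (SE 0.07; limma adjusted p = 6.84e-06) in Klf4. The Klf4 and Sox2 lines thus differed by 3.19 (SE 0.08; limma adjusted p = 1.24e-13). All HSPB1 and HSPB8 calls against GFP held in the 21 alternatives.

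HSPB11, which despite its name is a subunit of intraflagellar transport (IFT25), was 273 to 281 in GFP, 498 and 524 in Oct4, 298 and 349 in Sox2, 444 and 439 in Klf4, and 343 and 342 in OSK. It rose by 0.88 (SE 0.09; limma adjusted p = 1.94e-06) in Oct4 and by 0.67 (SE 0.09; limma adjusted p = 4.36e-05) in Klf4. Its OSK call (0.30; limma adjusted p = 0.0176) was lost without either OSK replicate. HSPB3, a small heat shock protein of muscle, was 25.6 and 36.6 in Oct4 and at most 5.83 in the other 9 libraries. It passed the filter only through the Oct4 libraries, so its call there supports nothing. HSPB2, HSPB6, HSPB7 and HSPB9 were not tested, with at most 11 reads in any library. CRYAB (alpha B crystallin), a small heat shock protein outside the symbol rule, was 14494 to 20167 in GFP, 10302 and 9525 in Klf4 and 6590 and 7438 in OSK. It changed by -0.84 in Klf4 (limma adjusted p = 6.25e-05) and by -1.34 in OSK (limma adjusted p = 3.1e-07), and was not called in Oct4 (0.06) or Sox2 (-0.13).

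The cytosolic HSP90 genes and 4 chaperone genes of mitochondria fell in the Oct4 line. In CPM (reads scaled to library size) per kilobase of exon, HSP90AB1, the constitutive cytosolic HSP90, had the highest mean of the 87 chaperone genes with an exon length, at 438 in GFP, 299 in Oct4, 386 in Sox2, 359 in Klf4 and 395 in OSK. By library HSP90AB1 had 20940.2, 23027 and 23332 normalised counts in GFP, 15998 and 15982 in Oct4, 19042 and 19888 in Sox2, 19724 and 18557 in Klf4, and 19870.2 and 20371 in OSK. Both Oct4 libraries lay below all others, and the libraries of every factor line lay below the GFP range. HSP90AB1 changed by -0.49 (SE 0.07; limma adjusted p = 6.33e-05) in Oct4. Its calls in Sox2 (-0.20; limma adjusted p = 0.0345) and Klf4 (-0.23; limma adjusted p = 0.024) were each lost without either replicate of the line or without GFP replicate 2 or 3, and the Sox2 call also without either OSK replicate. In OSK the change of -0.16 was not called, and it was without GFP replicate 1 (-0.20).

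HSP90AA1, the stress-inducible cytosolic HSP90, had 14459.6, 14361 and 15029 normalised counts in GFP, 11737 and 12410.2 in Oct4, 13758 and 14623 in Sox2, 16097 and 15917 in Klf4, and 15269.6 and 15792 in OSK. The Oct4 libraries lay below all others and the Klf4 and OSK libraries above the GFP range. The change in Oct4 was -0.28 (SE 0.07; limma adjusted p = 0.0037), lost without Oct4 replicate 1 (limma adjusted p = 0.0569), and no other line was called. Klf4 exceeded Oct4 by 0.41 (SE 0.07; limma adjusted p = 0.000265). Of the 50-base transcript sequences of HSP90AB1 16.6% occur in another gene and of HSP90AA1 11.3%, mostly in pseudogenes.

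HSPD1 (HSP60) and HSPE1 (HSP10) form the folding chamber of mitochondria. They lie on chromosome 2, HSPD1 at chr2:197486581-197516737 on the - strand and HSPE1 at chr2:197499994-197503457 on the + strand (GENCODE 29), so HSPE1 lies within the annotated span of HSPD1 on the other strand. RefSeq gives HSPD1 2 starts, 539 and 105 bases from that of HSPE1. The bases before a start of each gene are shown because both fell in Oct4 and Sox2. For HSPD1 it is the start 539 bases away, whose window holds heat shock elements. The 2 overlapping heat shock elements of HSPD1, 245 and 240 bases before its start, are in capitals.
HSPD1, chr2:197499841-197500090, - strand: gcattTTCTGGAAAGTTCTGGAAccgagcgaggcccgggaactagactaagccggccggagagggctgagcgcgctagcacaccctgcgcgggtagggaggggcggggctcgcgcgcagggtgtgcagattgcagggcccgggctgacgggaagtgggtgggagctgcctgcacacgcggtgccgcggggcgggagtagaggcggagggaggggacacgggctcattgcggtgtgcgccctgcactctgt
HSPE1, chr2:197500129-197500378, + strand: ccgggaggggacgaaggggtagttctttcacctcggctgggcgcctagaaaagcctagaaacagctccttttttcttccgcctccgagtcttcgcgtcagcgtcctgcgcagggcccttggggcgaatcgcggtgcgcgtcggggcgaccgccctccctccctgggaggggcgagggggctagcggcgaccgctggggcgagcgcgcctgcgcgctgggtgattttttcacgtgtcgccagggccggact

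HSPD1 had 4018, 4064 and 4316 normalised counts in GFP, 2690.4 and 2737 in Oct4, 2642 and 2723 in Sox2, 4111 and 3619 in Klf4, and 3767 and 3877 in OSK. All 4 libraries of Oct4 and Sox2 lay below every other library, and Klf4 and OSK lay around or below the GFP range. HSPD1 changed by -0.61 (SE 0.07; limma adjusted p = 2.91e-06) in Oct4 and by -0.62 (SE 0.07; limma adjusted p = 1.67e-06) in Sox2, and was not called in Klf4 (-0.10) or OSK (-0.11). HSPE1, a shorter gene with fewer reads, had 323, 272 and 278 normalised counts in GFP, 180.0 and 182 in Oct4, 227 and 172 in Sox2, 312 and 279 in Klf4, and 234 and 255 in OSK. The Oct4 and Sox2 libraries again lay below the GFP range, with Sox2 replicate 1 close to OSK replicate 1. HSPE1 changed by -0.68 (SE 0.13; limma adjusted p = 0.000742) in Oct4 and by -0.55 (SE 0.13; limma adjusted p = 0.00305) in Sox2, the second being lost without Sox2 replicate 2 (-0.35; limma adjusted p = 0.0872).

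HSPA9 (mortalin), the mitochondrial HSP70, and TRAP1, the mitochondrial HSP90, had the same direction. HSPA9 had 4138, 3875 and 4134 normalised counts in GFP, 2643 and 2685 in Oct4, 3046 and 2977 in Sox2, 3882 and 3708 in Klf4, and 3691 and 3884 in OSK. Its Oct4 and Sox2 libraries lay below all others, by -0.60 (SE 0.06; limma adjusted p = 1.16e-06) and -0.43 (SE 0.06; limma adjusted p = 3.64e-05). TRAP1 had 957, 1088 and 1003 normalised counts in GFP, 703 and 789 in Oct4, 699 and 748 in Sox2, 1007 and 945 in Klf4, and 861 and 833 in OSK. The Oct4, Sox2 and OSK libraries of TRAP1 lay below the GFP range, by -0.45 (SE 0.08; limma adjusted p = 0.000409), -0.49 (SE 0.08; limma adjusted p = 0.000142) and -0.26 (SE 0.08; limma adjusted p = 0.0179), the last being lost without either OSK replicate or GFP replicate 2. A set of 9 mitochondrial members, put together after the values were seen, had 0 called higher and 4 lower in Oct4, 1 and 6 in Sox2, 0 and 1 in Klf4, and 1 and 2 in OSK. Among all genes 20.1% and 17.2% were called higher and lower in Oct4, and 21.7% and 19.9% in Sox2. The shares of all genes were 17.6% and 16.0% in Klf4, and 19.7% and 20.0% in OSK. In Sox2 the member that rose was DNAJC15, a J-domain protein of the import motor. Because the set was chosen with the values known, its counts are a description only.

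**Figure D4:**
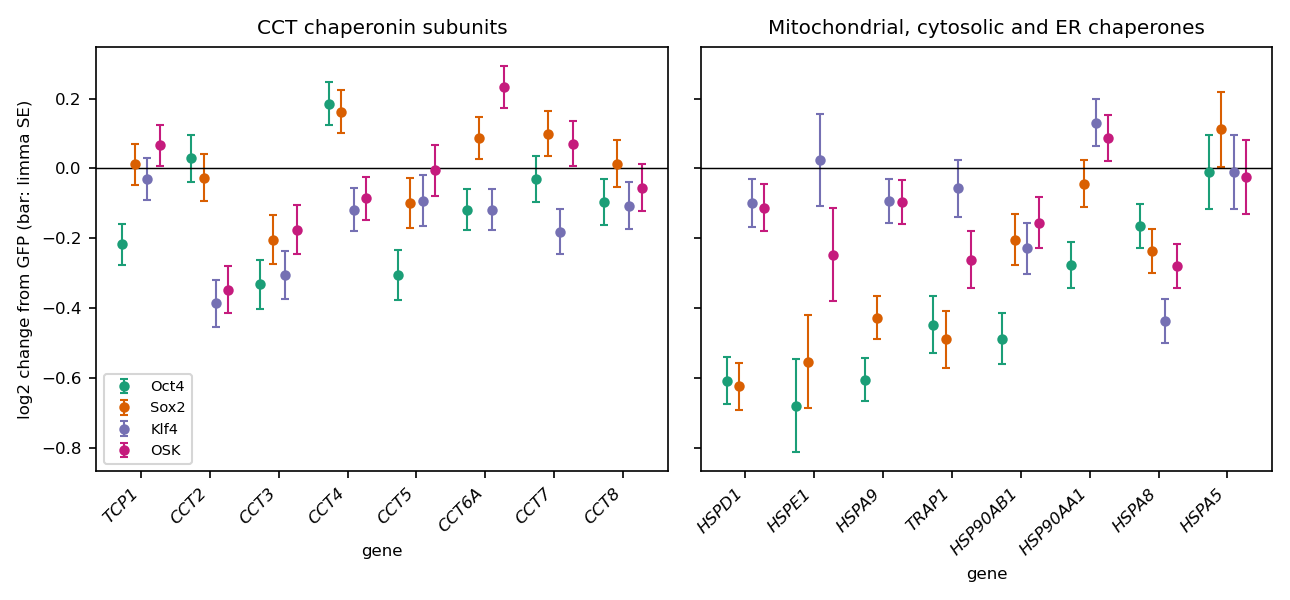
Points give the log2 change from GFP and bars the limma standard error for the 8 CCT genes with high counts (left) and 8 chaperones of mitochondria, cytosol and ER (right), by line. HSPD1, HSPE1, HSPA9 and TRAP1 sit below 0 in Oct4 and Sox2, and HSPA5 lies between -0.02 and 0.11.

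HSPA5 (BiP), the HSP70 of the ER and the usual marker of the unfolded protein response, was called in none of the 4 lines. It had 9408, 12732 and 12307 normalised counts in GFP, 11193 and 11418 in Oct4, 11953 and 12648 in Sox2, 11652 and 10952 in Klf4, and 11959 and 10488 in OSK. All groups overlapped the GFP range, whose spread was set by GFP replicate 1. The changes ran from -0.02 to 0.11, and without GFP replicate 1 and OSK replicate 1 the OSK change was -0.26, which then passed. HSP90B1 (GRP94), the HSP90 of the ER, had 10339.5, 12431 and 12472 normalised counts in GFP, 12674 and 13773 in Oct4, 14001 and 15816 in Sox2, 12455 and 12096 in Klf4, and 15702 and 13306 in OSK. All libraries of Oct4, Sox2 and OSK lay above the GFP range and the Klf4 libraries within it. HSP90B1 rose by 0.35 (SE 0.10; limma adjusted p = 0.00825) in Sox2 and by 0.30 (SE 0.10; limma adjusted p = 0.0188) in OSK. The Sox2 call was lost without Sox2 replicate 2 (limma adjusted p = 0.126), and the OSK call without OSK replicate 1, whose absence with that of GFP replicate 1 left a change of 0.10.

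DNAJC3 (p58IPK), which delivers substrates to BiP, rose in every line with 1501, 1490.2 and 1597 normalised counts in GFP, 2140.1 and 2145 in Oct4, 2796 and 2598 in Sox2, 1926 and 1987 in Klf4, and 2313 and 2382 in OSK. No factor library overlapped the GFP range, and Sox2 was highest. DNAJC3 rose by 0.49 (SE 0.06; limma adjusted p = 1.77e-05) in Oct4, 0.82 (SE 0.06; limma adjusted p = 4.21e-08) in Sox2, 0.36 (limma adjusted p = 0.000441) in Klf4 and 0.62 (limma adjusted p = 1.2e-06) in OSK, and these 4 calls held in the 21 alternatives. DNAJC10 (ERdj5), an ER reductase with a J domain, was 2485 to 2766 in GFP and 3043 to 3980 in the factor lines, with no overlap. It rose by 0.51 (SE 0.07; limma adjusted p = 2.13e-05) in Oct4, 0.31 (limma adjusted p = 0.00161) in Sox2, 0.21 (limma adjusted p = 0.024) in Klf4 and 0.49 (limma adjusted p = 2.54e-05) in OSK. The Klf4 call of DNAJC10 was lost without either Klf4 replicate. HSPA13, a microsomal HSP70 relative, was 1337 to 1363 in GFP and 2563 and 2286 in Sox2, a rise of 0.84 (SE 0.11; limma adjusted p = 1.05e-05). In the 7 members of the ER lumen, put together after the values were seen, 5 were called higher and 0 lower in Sox2 (all genes 21.7% and 19.9%), 2 and 1 in Oct4 (20.1% and 17.2%), 2 and 1 in Klf4 (17.6% and 16.0%), and 3 and 0 in OSK (19.7% and 20.0%).

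The CCT genes had small changes. Among the 9 genes, TCP1 included, 1 was called higher and 3 lower in Oct4 (all genes 20.1% and 17.2%), 1 and 1 in Sox2 (21.7% and 19.9%), 0 and 3 in Klf4 (17.6% and 16.0%), and 1 and 1 in OSK (19.7% and 20.0%). The 3 lower in Oct4 or Klf4 are 33.3% of the family, and the Sox2 and OSK shares were below the background. Leaving out CCT6B, a low testis form at 19.7 to 47.7 normalised counts, each gene stayed within 0.39 of GFP on the log2 scale in every line. TCP1 (CCT1) had 2705, 2765 and 2717 normalised counts in GFP, 2369 and 2326 in Oct4, 2734 and 2768 in Sox2, 2641 and 2703 in Klf4, and 2779 and 2938 in OSK. The Oct4 libraries lay below all others, by -0.22 (SE 0.06; limma adjusted p = 0.00865), a call lost without Oct4 replicate 2 (limma adjusted p = 0.0629). CCT2 had 3622, 3660.1 and 3582 normalised counts in GFP, 3785 and 3604 in Oct4, 3567 and 3544 in Sox2, 2619.8 and 2932 in Klf4, and 2725 and 2973 in OSK. Its Klf4 and OSK libraries lay below all others, by -0.39 (SE 0.07; limma adjusted p = 0.00032) and -0.35 (SE 0.07; limma adjusted p = 0.000592), and its Oct4 and Sox2 libraries lay near GFP (0.03 and -0.03).

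OSK was next compared with each single factor, to ask where the joint expression differed from each factor alone. Against Oct4, 21 chaperone genes were higher in OSK and 14 lower, with 18.4% and 21.9% of all genes as the background. Against Sox2, 9 were higher and 18 lower (background 20.0% and 20.5%), and against Klf4, 11 were higher and 6 lower (background 9.56% and 11.9%). By number of calls OSK was therefore nearest to Klf4, as it was over all genes. Against Sox2, fewer were lower without Sox2 replicate 1 or OSK replicate 1, fits that leave 1 library in a group. Without Sox2 replicate 1 fewer of all genes were lower too. When OSK and Sox2 alone were fitted, 14 were higher, with 4039 of all 18828 genes. Against Klf4, fewer were higher without Klf4 replicate 1 or OSK replicate 2, and fewer were lower without Klf4 replicate 1 or OSK replicate 1. With no filter or by DESeq2, 3 were lower against Klf4, with 1733 of 48093 and 1877 of 18828 genes. The HSP70 and HSP110 genes had 6 calls higher and 0 lower in OSK against Oct4, and HSPA1A, HSPA1B, HSPA9 and HSPD1 were each higher there, by 0.88, 1.05, 0.51 and 0.49. DNAJB5 separated OSK from Klf4, being higher by 0.94 (SE 0.09; limma adjusted p = 1.34e-06). The OSK value of HSPB8 lay between those of Klf4 and Sox2, with a difference of -1.49 (SE 0.08; limma adjusted p = 4.47e-09) from Klf4 and of 1.70 (SE 0.08; limma adjusted p = 1.81e-10) from Sox2.

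Between the single factors, 21 chaperone genes were higher and 12 lower in Sox2 than in Oct4, with 15.4% and 18.0% of all genes as the background. In Klf4 against Oct4, 22 were higher and 21 lower (background 20.0% and 21.8%), and in Klf4 against Sox2, 16 were higher and 25 lower (background 20.7% and 20.1%). The 21 higher in Sox2 than in Oct4 include 8 of the 15 HSP70 and HSP110 genes, of which 0 were lower. Wide gaps besides those of HSPB8 and HSPB1 included those between Sox2 and Oct4 of DNAJC6, at -1.16 (SE 0.12; limma adjusted p = 9.64e-07), and of HSPA4L, at 1.25 (SE 0.10; limma adjusted p = 7.59e-08). BAG1 was higher in Klf4 than in Oct4, at 1.445, and than in Sox2, at 1.491. DNAJC21 was lower in Klf4 than in Oct4, at -1.17. DNAJA4 was lower in Klf4 than in Sox2 by 1.65 on the log2 scale (limma adjusted p = 1.4e-05).

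Genes that act with the chaperones were counted from written lists. Of 24 HSP90 co-chaperones tested, 3 were higher and 8 lower in Oct4 (all genes 20.1% and 17.2%), 4 and 6 in Sox2 (21.7% and 19.9%), 2 and 5 in Klf4 (17.6% and 16.0%), and 3 and 6 in OSK (19.7% and 20.0%). The share lower in Oct4 was 33.3%, and those in Sox2, Klf4 and OSK were nearer to the background. FKBP5, an HSP90-bound prolyl isomerase and a known steroid receptor target, was 307 to 345 in GFP, 2050 and 1955 in Klf4 and 705 and 734 in OSK, with no overlap. FKBP5 rose by 2.64 in Klf4 (limma adjusted p = 1.47e-10) and by 1.16 in OSK (limma adjusted p = 8.71e-07), and was called lower in Sox2 (-0.40). Its relative FKBP4 was lower in every line (-0.59, -0.36, -0.50 and -0.48 in Oct4, Sox2, Klf4 and OSK). Of 23 ER folding factors, 8 were higher and 1 lower in Oct4, 16 and 3 in Sox2, 6 and 1 in Klf4, and 11 and 3 in OSK, with medians of 0.16, 0.39, 0.13 and 0.25. The shares of all genes higher and lower in each line are those given for the co-chaperones, here and for the lists that follow. In Sox2, where 21.7% of all genes rose, PDIA4 (a disulfide isomerase) rose by 0.69 and UGGT2 (a glycoprotein folding sensor) by 0.90. TXNDC5 was called lower in Klf4 (-1.05) and OSK (-1.65) and CNPY2 in OSK (-0.80), while SDF2L1 rose in Klf4 (0.63) and OSK (0.80).

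Of 11 regulators of the unfolded protein response, 3 were higher and 4 lower in Oct4, 3 and 4 in Sox2, 1 and 4 in Klf4, and 4 and 3 in OSK. DDIT3 (CHOP), a death-promoting factor of the response, was 265 to 311 in GFP and 75.3 to 143 in the factor lines. It changed by -1.13, -1.72, -1.25 and -1.08 in Oct4, Sox2, Klf4 and OSK. PPP1R15A (GADD34), which restores translation after stress, changed by -0.96, -1.27, -2.14 and -2.14 in the same lines. Each of these changes had a limma adjusted p under the threshold. ERN1, from the same list, went the other way in Oct4 and Sox2, with log2 changes of 0.88 and 1.06. ATF4 was lower in Klf4 (-0.47) and TRIB3 in OSK. HSF1, heat shock factor 1, rose by 0.32 in Klf4 (limma adjusted p = 0.00768) and by 0.28 in OSK (limma adjusted p = 0.0128) and was not called in Oct4 (-0.12) or Sox2 (0.01). The log2 changes of HSF2 were -0.21 in Oct4, 0.14 in Sox2, -0.18 in Klf4 and -0.18 in OSK. HSF4 was lower in Oct4 (-0.86), Sox2 (-0.97) and OSK (-0.70). Of 9 prefoldin and CCT helper genes, 1 was higher and 2 lower in Oct4, 3 and 0 in Sox2, 0 and 2 in Klf4, and 1 and 1 in OSK, with VBP1 (prefoldin 3) up by 1.31 in Oct4 and PDCL3 at -1.01 in Klf4. Of 12 genes of mitochondrial protein upkeep, 2 were higher and 3 lower in Oct4, 1 and 3 in Sox2, 1 and 1 in Klf4, and 1 and 0 in OSK.

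The 8 members that were not tested were DNAJB3, DNAJB8, DNAJC12, HSPA7, HSPB2, HSPB6, HSPB7 and HSPB9. They had at most 11 reads in any library. For DNAJB8, a testis J-domain protein, GFP replicate 1 had 9.93 normalised counts, OSK replicate 1 had 2.17 and the other libraries at most 0.86. HSPA7 was likewise seen in those 2 libraries only, at 8.94 and 2.17, and DNAJB3 in GFP replicate 1 only, at 3.97. These are the same libraries in which many more features had a read.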

How the data were processed

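Polyadenylated RNA of 11 ARPE-19 libraries was sequenced, and 1 table of 60605 features was used. Its values are a signal per gene that the authors deposited as normalised counts: read counts divided by 1 factor per library and rounded to 2 decimals. Low values are whole multiples of 1 step, from which reads were recovered (100% of values up to 200 whole within 0.0061). Per the submitters' processing notes the tools included STAR 2.7.1a and featureCounts 1.6.2, and the builds GRCh38, hg38, GRCm38 and mm10 are named without roles. The annotation, the strand setting and how reads shared between genes were counted are not given in the sources used here.

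The test was limma 3.58.1 (R 4.3.3, trend) on log2(value + 1), for features reaching 10 normalised counts in 2 or more libraries, with all groups in 1 fit (6 residual degrees of freedom) and Benjamini-Hochberg adjustment over 18828 features at 0.05. Adjusted p-values in the text are from this test. A fold on this scale understates the change of low genes. Alternatives were edgeR 4.0.16 and DESeq2 1.42.0 on recovered reads, other scalings, pseudocounts, filters and sample sets, a replicate block, and each library left out.

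The members and lists were chosen with earlier results of these data known. Genes named by rule were 16 fixed members, the 3 largest called rises and falls in each comparison with GFP and the 2 largest in each other comparison, limited to genes with 10 CPM or more in 1 of the groups and no overlap of libraries, up to 3 genes of each list, and HSF1 and HSF2. Further genes named were chosen after their values were seen. Gene positions are from GENCODE 29 (GRCh38), matched by symbol for 87 of the 88 members, and promoter sequences from RefSeq (GRCh38.p14).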

Additional observations from a re-analysis of the deposited data

How the results depend on the processing

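Of 137 calls for members against GFP, 80 held in all 21 alternatives, and over the 10 comparisons 204 of 333 did. No call reversed. With no filter on low values, OSK against Klf4 had 11 members called, where the reported count was 17. Leaving out 1 library at a time gave 31 to 42 called in Oct4 against GFP, 26 to 37 in Sox2, 18 to 34 in Klf4 and 19 to 32 in OSK. It gave 26 to 39 for OSK against Oct4, 16 to 32 for OSK against Sox2, 8 to 21 for OSK against Klf4, 22 to 39 for Sox2 against Oct4, 33 to 48 for Klf4 against Oct4, 31 to 43 for Klf4 against Sox2, and 53 to 62 for the F test. The low of 18 came without Klf4 replicate 1, the lows of 19 and 16 without OSK replicate 1, and the low of 8 without Klf4 replicate 1, with 9 without OSK replicate 2. These alternatives have fewer libraries, and a line left with 1 library is assumed to vary like the other groups. With a replicate block the counts were 39, 30, 26 and 26 for Oct4, Sox2, Klf4 and OSK against GFP, 35, 24 and 15 for OSK against Oct4, Sox2 and Klf4, 32, 39 and 39 between the single factors, and 58 for the F test. Same-numbered libraries did not pair: the correlation of their deviations was -0.07 to 0.04 except 0.41 between GFP and OSK. Leaving out both GFP replicate 1 and OSK replicate 1 was chosen after seeing the data. Members under 10 normalised counts are limited by depth.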
